A study of Rattus norvegicus with 10 samples.

Results

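The scaffold genes of the postsynaptic density were followed in RNA-seq of rat prefrontal cortex. They were taken by symbol from the deposited table, and all 9 names, Dlg4, Dlg2, Dlgap1, Dlgap3, Shank1, Shank2, Shank3, Homer1 and Baiap2, matched 1 row each of 16041 rows. All 9 passed the filter on low values. The libraries came from male Sprague-Dawley rats at postnatal day 91, 5 of them controls and 5 exposed to early life stress (ELS) by limited nesting from postnatal day 2 to postnatal day 9. In limited nesting the mother rears her litter on scant bedding. Litters are not named, so the p-values reflect spread among these samples only. No allele, drug or transgene is named for either group.

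The postsynaptic density is the protein-rich disc under the membrane of excitatory synapses, where receptors are held opposite the site of glutamate release. Its scaffolds form layers. Dlg4 (PSD-95) and Dlg2 (PSD-93) are membrane-associated guanylate kinase proteins that bind NMDA receptors and the auxiliary subunits of AMPA receptors through PDZ domains. Dlgap1 and Dlgap3, of the SAPAP family, link them to the Shank proteins deeper in the density. Shank proteins bind Homer, which reaches metabotropic glutamate receptors and intracellular calcium channels, and Baiap2 (IRSp53) couples the scaffold to Rac signalling and actin.

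Start-site sequences stood in the RefSeq promoter table (build GRCr8) for 7 of the 9 genes, in 8 windows of 250 bases before the start. Shown are those of Baiap2 and Dlg4, which had the lowest p-values of the 9 genes for ELS against control, and those of Dlg2 and Homer1 for contrast. Capitals mark the TATA box (letters TATAAA), the GC box (letters GGGCGG) and the letters TGACG (the core of a cyclic AMP response element), searched on both strands.
Baiap2, chr10:105721306-105721555, plus strand: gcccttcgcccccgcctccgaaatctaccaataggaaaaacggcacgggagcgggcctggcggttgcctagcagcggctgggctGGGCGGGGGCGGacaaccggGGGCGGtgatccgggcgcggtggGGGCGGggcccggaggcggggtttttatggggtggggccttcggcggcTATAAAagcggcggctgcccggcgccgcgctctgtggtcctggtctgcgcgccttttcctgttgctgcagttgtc
Dlg4, chr10:55239534-55239783, plus strand: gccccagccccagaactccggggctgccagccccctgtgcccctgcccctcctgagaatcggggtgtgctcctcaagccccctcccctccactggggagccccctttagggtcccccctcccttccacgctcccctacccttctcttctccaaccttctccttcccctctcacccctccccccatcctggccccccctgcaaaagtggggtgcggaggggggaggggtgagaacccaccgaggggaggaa
Dlg2, chr1:154539421-154539670, plus strand: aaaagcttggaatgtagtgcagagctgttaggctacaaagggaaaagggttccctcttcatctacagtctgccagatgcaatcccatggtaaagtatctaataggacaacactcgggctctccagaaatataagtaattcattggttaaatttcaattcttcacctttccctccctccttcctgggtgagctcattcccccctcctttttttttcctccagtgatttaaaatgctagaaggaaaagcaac
Homer1, chr2:26278762-26279011, plus strand: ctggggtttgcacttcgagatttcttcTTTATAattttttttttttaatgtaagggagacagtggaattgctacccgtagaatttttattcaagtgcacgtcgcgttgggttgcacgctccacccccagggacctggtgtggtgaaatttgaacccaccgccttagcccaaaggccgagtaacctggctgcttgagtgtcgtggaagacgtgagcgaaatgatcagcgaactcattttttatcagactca

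In base composition, the Baiap2 window held 70.8% G and C and the Dlg4 window 69.2%, above 92.8% and 90.8% of the 33469 promoter windows of this length. The other 5 genes with a window lay between 34.4% (the second Dlgap1 window) and 56% (Shank3), against a median of 51.2% over all windows. Baiap2 carried 4 GC boxes and 1 TATA box. GC boxes were found in 30.5% of all windows and TATA boxes in 12.9%. The core TGACG, present in 18.2% of all windows, was in none of the 8. A further pair of motifs was counted without capitals, CANNTG (E-box, 65.5% of all windows) and CCAAT (34.0%), and the Dlg4 window held neither. These matches describe the letters in the windows and no binding was measured.

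Library totals ran from 18838898 to 22311136 reads, and 71.1% to 73.7% of them belonged to genes in the table. Levels are in RPKM, reads scaled to gene length and library total, so they can be compared between genes. A fold change compares ELS with control as a difference of log2(RPKM + 0.1), a scale that shrinks changes of weakly expressed genes. All 7 listed markers of cortical excitatory neurons were detected, with Slc17a7, the vesicular glutamate transporter, at 369.2 ± 32.1 RPKM in controls (SD, n = 5). Control replicate 4 and ELS replicate 2 stood apart from their groups over many genes, and values that moved most without them are given both ways. Control replicate 4 had the choroid plexus gene Ttr at 31.1 RPKM, against 0 to 1.96 in the other 9 libraries.

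The 9 genes differed widely in abundance. Dlg4 was the most abundant, at 177.8 ± 6.64 RPKM in controls, 30.4% ± 1.21 of the summed level of the 9 genes (SD, n = 5). It was followed by Shank1, Baiap2, Dlgap3, Dlgap1, Dlg2, Shank3 and Homer1, and Shank2 was the lowest at 2.04 ± 0.267 RPKM. In both groups the ranges of Dlgap3 and Dlgap1 overlapped, as did those of Dlg2 and Shank3, so neither pair had a fixed order. Shank3 lay above Homer1 in 5 of 5 control libraries, although their control ranges overlapped. The other neighbours in this order were separated in both groups. Recovered reads per library were 11009 to 13691 for Dlg4 and 396 to 512 for Shank2, so counting error weighs most on Shank2.

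**Figure D1:**
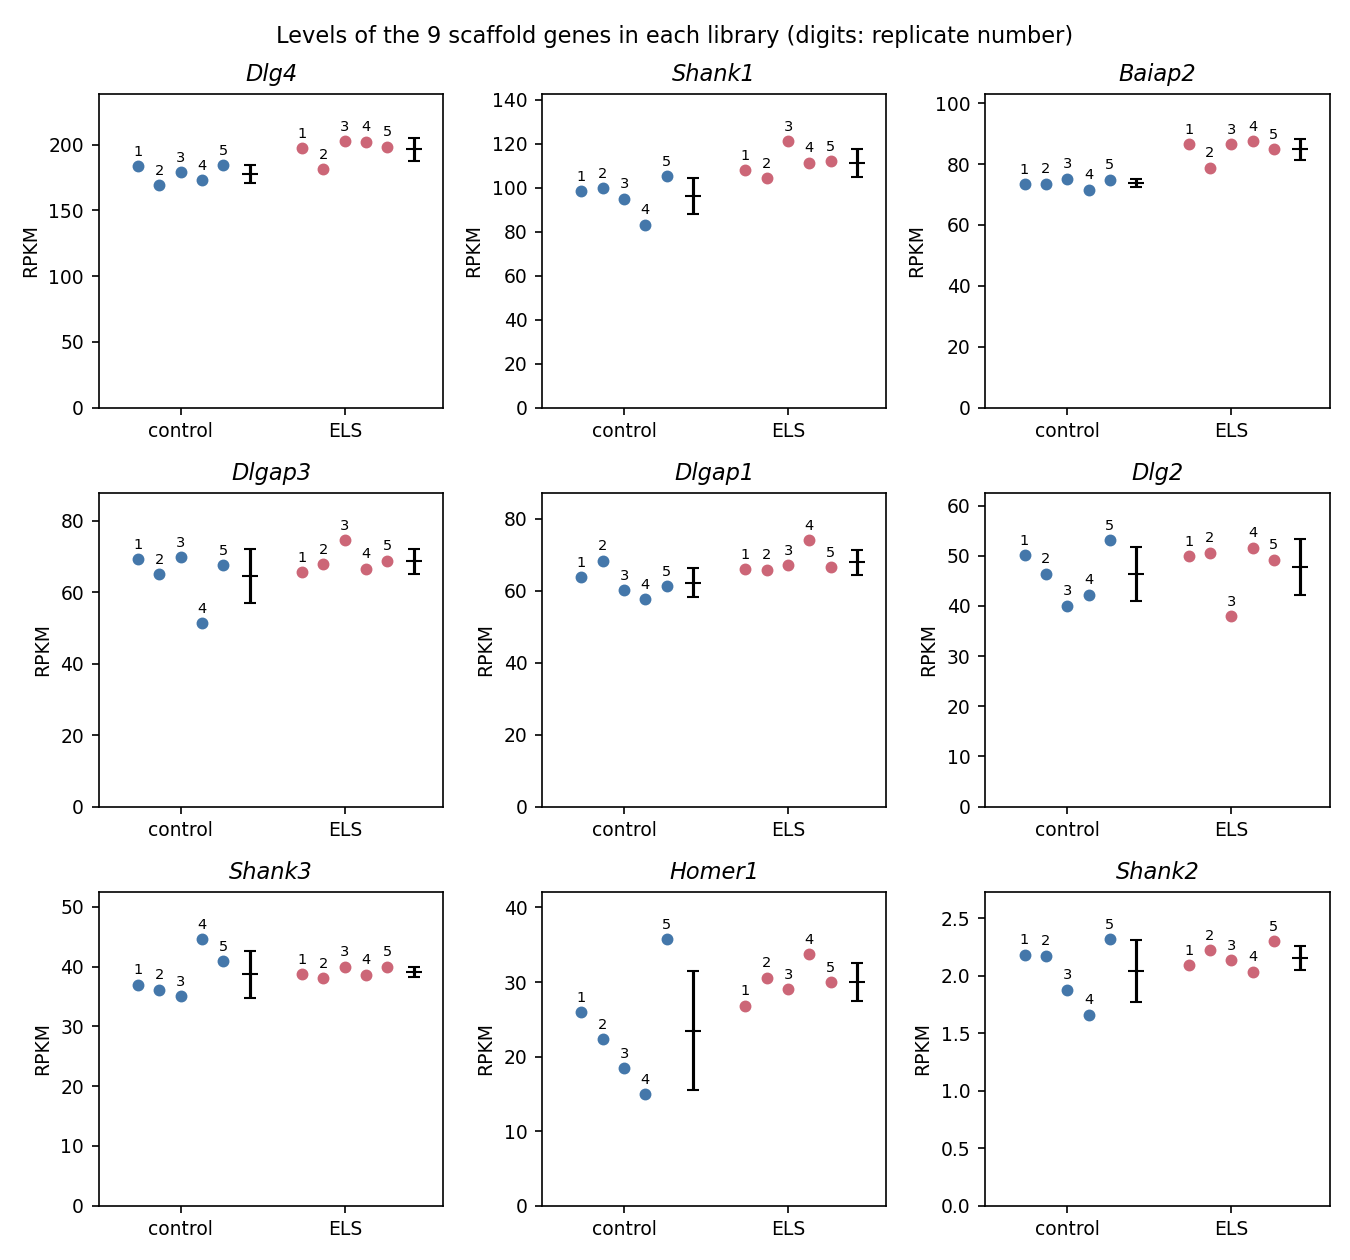
Level in RPKM (linear axis from 0) of each of the 9 genes in the 5 control and 5 ELS libraries, ordered by control mean; points are libraries with their replicate number and black marks are mean ± SD. The Baiap2 groups do not overlap, at 71.6 to 75.1 RPKM against 78.8 to 87.4, while the Homer1 controls spread from 15.0 to 35.7.

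The 9 genes were chosen with earlier results of these data known, so their counts describe them and are no test. Their mean was higher in ELS than in controls in 9 of 9. Among all 14642 genes tested, 50.6% had a higher mean in ELS. The median log2 fold change was 0.13 over the 9 genes and 0.00371 over all genes tested. At an unadjusted p under 0.05, 4 of the 9 were higher in ELS (Baiap2, Dlg4, Shank1 and Dlgap1) and 0 were lower, where 20.4% of all genes tested passed that level, 10.1% higher and 10.3% lower. After Benjamini-Hochberg adjustment over all genes 0 of the 9 passed by limma, as did 0 of 14642 overall (0%), and limma-voom on recovered reads also gave 0. In bulk tissue, fewer cells of a type and less RNA per cell cannot be told apart.

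Baiap2 (ENSRNOG00000004049), the actin-side adaptor, separated the groups. It was at 73.4, 73.6, 75.1, 71.6 and 74.8 RPKM in control replicates 1 to 5 and at 86.6, 78.8, 86.6, 87.4 and 84.9 in ELS replicates 1 to 5. Every ELS library lay above every control library, as in 3.08% of all tested genes (2.6% lay the other way and 5.68% either way), and ELS replicate 2 was nearest to the controls. The means of 73.7 ± 1.38 and 84.8 ± 3.51 RPKM (SD, n = 5) differed by 15.1%, and the log2 fold change was 0.20 ± 0.04 (SE, by limma, unadjusted p = 0.000255, adjusted p = 0.133). Its p-value was the 25th lowest of all genes tested. The control spread of Baiap2 was also the tightest of the 9 genes, with a coefficient of variation of 1.87%.

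Dlg4 and Dlg2 are the scaffolds nearest to the receptors. Dlg4 (ENSRNOG00000018526) measured 183.5, 169.1, 179.0, 172.8 and 184.3 RPKM in the control libraries, against 197.4, 181.1, 202.5, 202.1 and 198.6 in the ELS libraries. ELS replicate 2 fell inside the control range and the other 4 ELS libraries above it. The log2 fold change of Dlg4 was 0.14 ± 0.04 (SE; limma, unadjusted p = 0.0067, adjusted p = 0.138), a mean level 10.4% higher. Dlg2 (ENSRNOG00000022635) measured 50.1, 46.5, 40.1, 42.2 and 53.1 RPKM in the control libraries, against 49.9, 50.6, 38.0, 51.6 and 49.2 in the ELS libraries. Its groups overlapped throughout, with the highest library a control and the lowest an ELS library, and the log2 fold change was 0.04 with a 95% interval of -0.18 to 0.27 (limma).

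The log2 ratio of Dlg4 to Dlg2 within each library, which does not depend on library scaling, averaged 1.95 ± 0.148 in controls and 2.04 ± 0.217 in ELS (SD, n = 5). The difference of 0.0989 was within the spread of the libraries (exact permutation test over all assignments of libraries, two-sided, p = 0.492, adjusted over 5 ratios p = 0.82). Leaving out 1 library gave 0.00665 (without ELS replicate 3) to 0.153 (without control replicate 3). Dlg4 met the unadjusted threshold and Dlg2 did not, but a difference between their responses was not detected.

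Of the SAPAP linkers, Dlgap1 (ENSRNOG00000016196) measured 63.7, 68.3, 60.1, 57.6 and 61.1 RPKM in the control libraries, against 65.9, 65.7, 67.0, 73.9 and 66.4 in the ELS libraries. Control replicate 2 exceeded 4 of the 5 ELS libraries, and the remaining controls lay below all of them. Its log2 fold change was 0.13 ± 0.05 (SE; limma, unadjusted p = 0.0383, adjusted p = 0.221), or 0.0987 without control replicate 4 (unadjusted p = 0.075). Dlgap3 (ENSRNOG00000014302) measured 69.2, 64.98, 69.7, 51.3 and 67.5 RPKM in the control libraries, against 65.7, 67.7, 74.5, 66.6 and 68.8 in the ELS libraries. Apart from the low control replicate 4 and the high ELS replicate 3, the libraries of both groups lay between 64.98 and 69.7. The log2 fold change of Dlgap3 was 0.10 with a 95% interval of -0.08 to 0.28 (limma), and without control replicate 4 it was 0.0161. Their log2 ratio averaged -0.0477 ± 0.159 in controls and -0.0182 ± 0.111 in ELS (exact permutation p = 0.746, adjusted over 5 ratios p = 0.865).

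The Shank genes encode the deep scaffold that bridges SAPAP and Homer. Shank1 (ENSRNOG00000019207) measured 98.4, 99.7, 94.99, 83.2 and 105.3 RPKM in the control libraries, against 107.9, 104.3, 121.1, 111.3 and 112.2 in the ELS libraries. A single pair crossed, control replicate 5 lying just above ELS replicate 2. Its log2 fold change was 0.21 ± 0.06 (SE; limma, unadjusted p = 0.0075, adjusted p = 0.14), and 0.16 without control replicate 4, the lowest control. Shank3 (ENSRNOG00000052296) measured 37.0, 36.1, 35.1, 44.5 and 40.9 RPKM in the control libraries, against 38.7, 38.0, 39.97, 38.7 and 40.01 in the ELS libraries. The ELS libraries sat within 38.0 to 40.01 and inside the control range, whose top value was control replicate 4. The log2 fold change of Shank3 was 0.02 with a 95% interval of -0.12 to 0.16 (limma). Reads of Acr, a gene that overlaps Shank3 in the RefSeq annotation, were few, at 0.601 ± 0.178 RPKM in controls and 0.529 ± 0.217 in ELS.

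Shank2 (ENSRNOG00000050206) was rare in these libraries, reading 2.19, 2.17, 1.88, 1.66 and 2.32 RPKM in the control libraries and 2.09, 2.22, 2.14, 2.04 and 2.30 in the ELS libraries. Its groups overlapped, with both of the lowest values among the controls, and the log2 fold change was 0.08 with a 95% interval of -0.14 to 0.31 (limma), or 0.0152 without control replicate 4. The log2 ratio of Shank1 to Shank3 was 1.41, 1.47, 1.44, 0.901 and 1.36 in controls and 1.48, 1.46, 1.599, 1.53 and 1.49 in ELS. ELS replicate 2 alone among the ELS libraries lay below the highest control, replicate 2. The difference of 0.19 had an exact permutation p = 0.0159 (two-sided, adjusted over 5 ratios p = 0.0794) and did not pass after adjustment. Without control replicate 4 it was 0.0901 (exact permutation, adjusted p = 0.119). The ratio of Shank1 to Shank2 had a difference of 0.12 (exact permutation p = 0.0873, adjusted p = 0.218), or 0.144 without control replicate 4. For Shank3 to Shank2 the difference was -0.0698 (exact permutation p = 0.865), and it turned to 0.054 without control replicate 4.

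**Figure D2:**
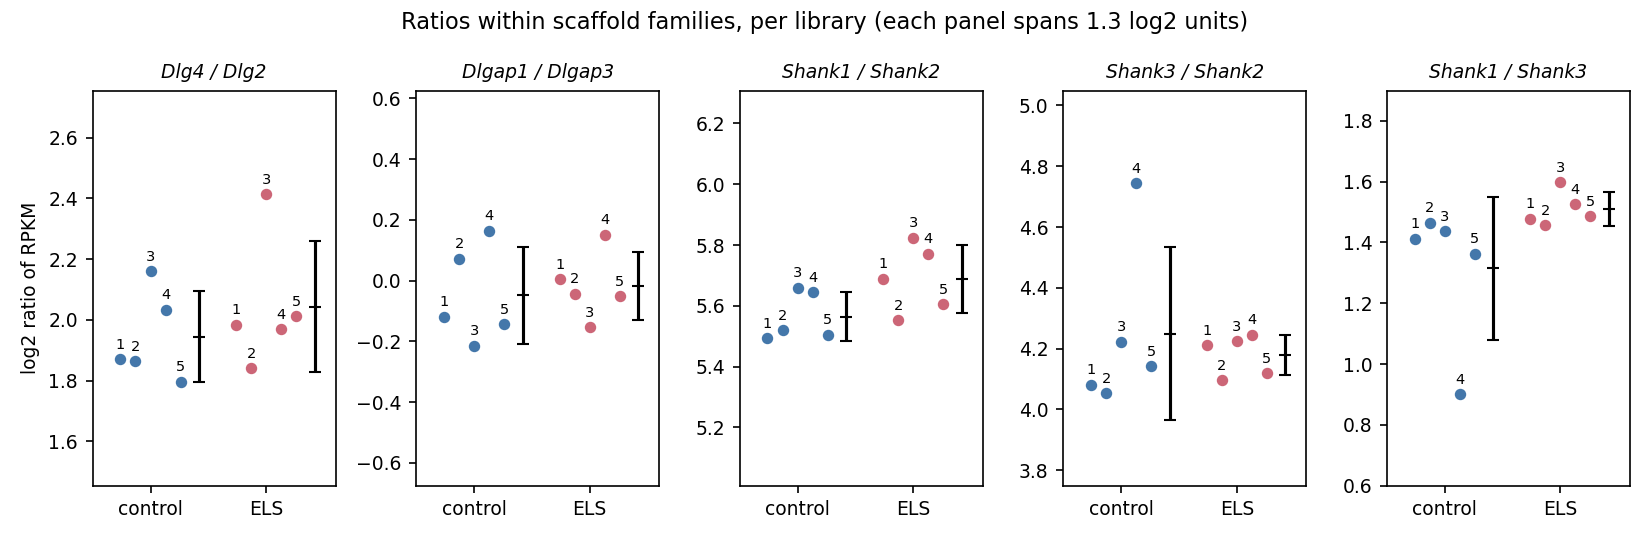
Log2 ratio of the RPKM of gene pairs of the same family in each library, by group; points are libraries with their replicate number, black marks are mean ± SD, and each vertical axis spans 1.3 log2 units around the data, not from 0. Control replicate 4 lies apart in both ratios that hold Shank3, at 4.74 for Shank3 to Shank2 and 0.901 for Shank1 to Shank3.

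Homer1 (ENSRNOG00000047014), whose short form is induced by neuronal activity and whose long forms tie Shank to metabotropic receptors, was the most variable of the 9 genes in controls. It measured 25.9, 22.3, 18.5, 15.0 and 35.7 RPKM in the control libraries, against 26.8, 30.6, 29.0, 33.7 and 30.0 in the ELS libraries. Control replicate 5 held the highest value of all and the other 4 controls lay below every ELS library. The coefficient of variation was 34.0% in controls and 8.37% in ELS, where Dlg2 varied more (11.6%). That difference in spread was not tested. The means were 23.5 ± 7.98 and 30.0 ± 2.51 RPKM (SD, n = 5), and the log2 fold change was 0.41 ± 0.19 (SE, by limma, unadjusted p = 0.0592, adjusted p = 0.264). Without control replicate 5 the log2 fold change was 0.58 (unadjusted p = 0.00276, adjusted p = 0.111), and leaving out control replicate 4 instead gave 0.268 (unadjusted p = 0.136). The table gives 1 gene model of 2193 bases, so short and long forms are not separated.

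Other activity-induced genes were set beside Homer1 because the short form belongs to them. None of the 10 others, among them Fos and Egr1, was under an unadjusted p of 0.05. Over the 10 libraries Homer1 correlated with the mean centred log2 level of the other 10 (Pearson's r = 0.66, permutation p = 0.0395, and Spearman's rho = 0.418, permutation p = 0.234). These p-values were not adjusted, and correlations of Homer1 with single genes, given further below, have no p-value. With control replicates 4 and 5, the samples farthest from the median, left out, r was -0.0161, so the relation rests on those libraries. Groups of 5 libraries are too small for a correlation of their own, and its sign was positive within controls and negative within ELS. Control replicate 5 had the highest activity score, 0.732, and control replicate 4 the lowest, -1.07.

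**Figure D3:**
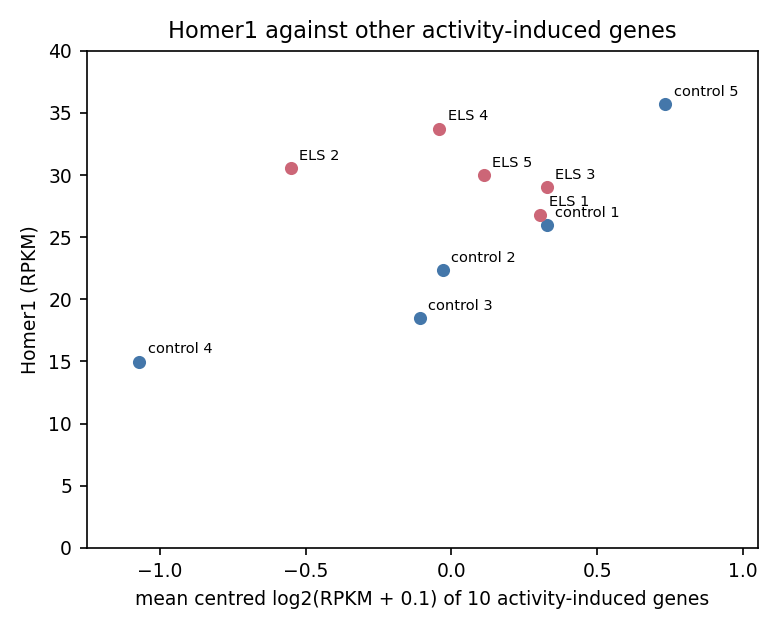
Homer1 in RPKM (vertical axis, from 0) against the mean centred log2(RPKM + 0.1) of 10 other activity-induced genes in each of the 10 libraries. Control replicates 4 and 5 mark the ends at scores of -1.07 and 0.732, and ELS libraries lie between 26.8 and 33.7 RPKM over scores of -0.551 to 0.327.

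The sum of the 9 genes was 585.2 ± 32.0 RPKM in controls and 648.1 ± 19.0 in ELS (SD, n = 5), with ELS replicate 2 at 619.1 just under control replicate 5 at 625.1. Dlg4 made up 30.4% of it in controls and 30.3% in ELS, Shank1 16.4% and 17.2%, and Baiap2 12.6% and 13.1%, and the shares of all 9 genes overlapped between the groups. Control replicate 4 was the lowest control in 6 of the 9 genes (Baiap2, Dlgap1, Dlgap3, Shank1, Shank2 and Homer1) and the highest in Shank3.

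Markers of several cell types differed between the same libraries. Of 7 excitatory neuron markers 6 had a higher mean log2 level in ELS (1 of them, Nrgn, at an unadjusted p under 0.05), and their summed level was 1877 to 2144 RPKM in controls and 2040 to 2370 in ELS. All 6 interneuron markers also had a higher mean log2 level, with sums of 192.6 to 367.2 and 338.9 to 383.0 RPKM, the lowest in control replicate 4. All 10 oligodendrocyte markers were lower in ELS at an unadjusted p under 0.05, with sums of 1186 to 2425 and 891.6 to 1172 RPKM that did not overlap. The highest of these sums was in control replicate 4, where Mbp, a myelin protein gene, was at 1065.7 RPKM. All 8 astrocyte markers had lower means in ELS (sums of 1254.0 to 1493.8 and 1092.7 to 1225.4 RPKM), as did all 8 microglial markers. The 4 blood rows, of haemoglobin genes and Alas2, were lower in ELS at an unadjusted p under 0.05, with a median log2 fold change of -1.07. Over all genes tested, 10.1% were higher and 10.3% lower at that level, and 0 genes passed after adjustment. Striatal markers summed to 202.7 RPKM in control replicate 1, 57.5 to 116.6 in the other controls and 102.6 to 114.7 in ELS. The part of these markers in the scaffold values was not tested.

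The scaffold differences were also expressed relative to excitatory neuron markers, an alternative added after the data were seen. Scaling each library by the marker sum, which was 0.188 higher in ELS on the log2 scale, moved the median of all genes to -0.18. The log2 fold change of Baiap2 was then 0.0145 (limma, adjusted p = 0.859), that of Shank1 0.024 and that of Dlg4 -0.0449. Under this scaling 1 of the 9 genes was under an unadjusted p of 0.05, where 38.1% of all genes tested were. It was Shank3, lower at -0.17 (limma, unadjusted p = 0.00838, adjusted p = 0.0505). Scaling by Slc17a7 alone, 0.118 higher in ELS, gave 0.0839 for Baiap2, 0.0935 for Shank1 and 0.0247 for Dlg4. It left 0 of the 9 genes under an unadjusted p of 0.05, where 23.3% of all genes tested were. Either scaling shifts every gene of a library by the same factor, so a positive log2 fold change smaller than the marker shift changes sign by construction. Camk2a and Nrgn, at 783.9 and 718.5 RPKM in controls, made up most of the marker sum, and Camk2a is itself a kinase of the postsynaptic density.

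Calls after adjustment depended on which libraries were kept and on how they were weighted. Leaving out control replicate 4 alone called 0 genes by limma (Baiap2 at an adjusted p = 0.0797, Shank1 at 0.116). Without ELS replicate 2, 444 genes (3.03%, with 0.929% higher in ELS) passed by limma, among them Baiap2 (log2 fold change 0.23, adjusted p = 0.0158) and Dlg4 (0.17, adjusted p = 0.0445). Without both libraries 1116 genes (7.62%, with 3.5% higher in ELS) passed, and 3 of the 9 did: Baiap2 (adjusted p = 0.0101), Dlg4 (adjusted p = 0.0268) and Shank1 (adjusted p = 0.0433). Those 3 also passed when limma weighted each library by its spread, with 866 genes called (5.91%, with 2.55% higher in ELS), and the weight of control replicate 4 was 0.185, the lowest of the 10. Among the 9 genes, ELS replicate 2 lay below all other ELS libraries in 5.

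**Figure D4:**
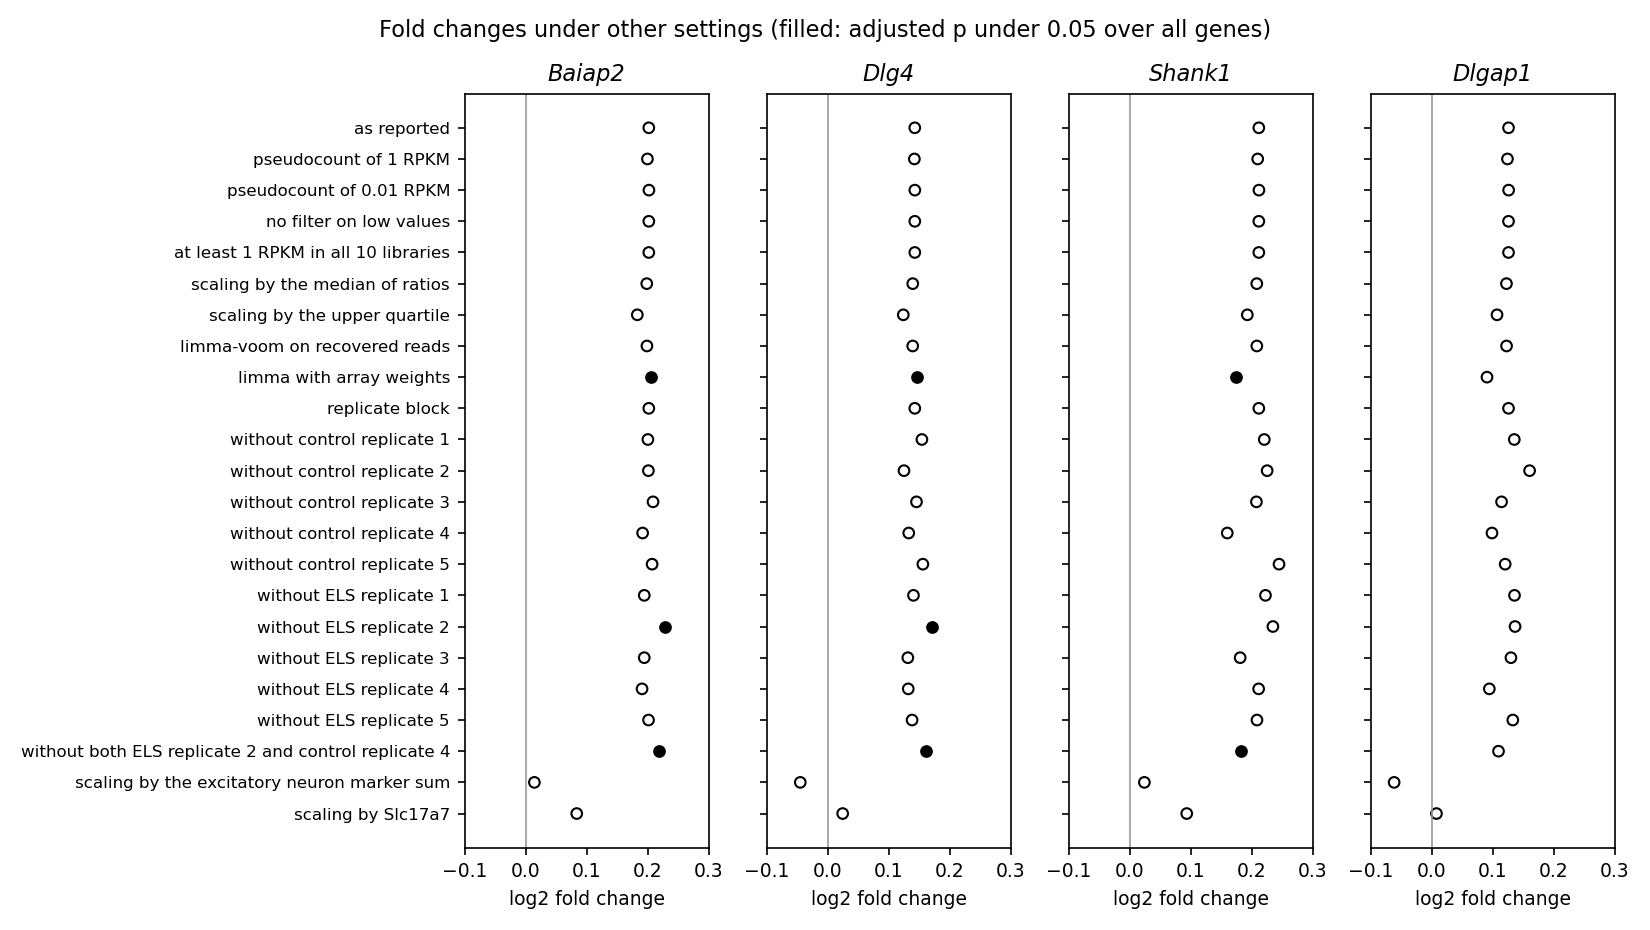
Log2 fold change (ELS against control) of the 4 genes under an unadjusted p of 0.05, as reported and under each alternative; filled circles have an adjusted p under 0.05 over all genes (limma). Baiap2 lies between 0.183 and 0.229 except under scaling by excitatory neuron markers, where it is 0.0145 (marker sum) and 0.0839 (Slc17a7).

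The wider postsynaptic density was described by 65 further names in 8 lists of paralogs and binding partners, of which 61 were tested. At an unadjusted p under 0.05, 16 were higher in ELS and 7 lower, where 10.1% of all genes tested were higher and 10.3% lower, so the count of lower genes was near the background. Their median log2 fold change was 0.05. None passed after adjustment by limma. These lists were also chosen with earlier results of these data known, so the counts are a description. Among paralogs of the scaffolds, Homer2 was lower in ELS, at 6.16 ± 0.765 RPKM in controls and 4.14 ± 0.923 in ELS (SD, n = 5). Its log2 fold change was -0.58 ± 0.15 (SE, by limma, adjusted p = 0.133). Its groups did not overlap, though narrowly, with the nearest libraries at 5.40 and 5.38 RPKM. Every ELS library lay below every control library in 2.6% of all genes tested. Homer2 thus lay in the opposite direction to Homer1, and the difference between the 2 genes was not tested. Homer3 was at 14.9 RPKM in control replicate 4 and 1.78 to 3.01 in the other controls, and its log2 fold change went from -0.82 to -0.31 without that library.

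Mtss1, a membrane-bending relative of Baiap2, was lower in ELS, at 9.105 ± 1.182 and 7.004 ± 0.308 RPKM (log2 fold change -0.37 ± 0.08, SE, by limma, adjusted p = 0.133). Its groups did not overlap, as in the 2.6% of all genes tested with every ELS library below every control. Its relative Mtss1l was at 58.3 ± 2.89 and 55.5 ± 3.12 RPKM, within the spread. Dlgap4 was higher at 49.1 ± 3.75 and 54.4 ± 3.04 RPKM (log2 fold change 0.15, limma, unadjusted p = 0.0324), while Dlgap2, Dlg1 and Dlg3 did not reach an unadjusted p of 0.05.

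Of 10 regulators of small GTPases, which set the actin state of the spine, 8 had a higher mean log2 level in ELS and 2 a lower one. At an unadjusted p under 0.05, 5 were higher and 0 lower, with a median log2 fold change of 0.15 over the 10. Over all genes tested the shares were 10.1% and 10.3%, and the list itself was not tested. Iqsec2, an Arf exchange factor, was at 26.5 ± 0.490 and 30.9 ± 1.70 RPKM (log2 fold change 0.22 ± 0.04, SE; limma, adjusted p = 0.133). Kalrn, a Rac exchange factor, was at 38.2 ± 1.82 and 44.7 ± 2.78 RPKM (0.23 ± 0.05). Both separated the groups, as Baiap2 and 3.08% of all genes tested did. Of 9 actin partners, 4 had a higher mean log2 level in ELS and 5 a lower one, with a median log2 fold change of -0.0365. At an unadjusted p under 0.05, 2 were higher (Cyfip2 and Synpo) and 1 lower (Actn2, -0.21). Cyfip2, of the actin-regulating WAVE complex, was at 223.0 ± 30.9 and 286.2 ± 18.1 RPKM (0.37 ± 0.10), and its groups did not overlap. Other listed members of that complex did not reach an unadjusted p of 0.05, with log2 fold changes of -0.0534 for Abi1, 0.0794 for Abi2 and 0.0512 for Wasf1. Abi1, Abi2, Wasf1 and Actn2 were named after their values were seen.

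Linkers and other scaffolds had 4 of 18 members higher and 2 lower at an unadjusted p under 0.05. Over all genes the shares were 10.1% and 10.3%, so the lower count was near the background. Kif1a (log2 fold change 0.24) and Lzts3 (0.27) had the lowest p of those that were higher. Kinases, receptors and adhesion partners had 4 of 14 higher at that level, including Nlgn2 (0.16) and Cacng2 (0.36). A further 2 were lower, again near the background share. Those 2, Adam22 and Grm5, were singled out after their values were seen. In both, ELS replicate 2 was at the control level (20.95 and 22.04 RPKM). The other 4 ELS libraries were lower, at 3.50 to 13.0 for Adam22 and 5.95 to 13.0 for Grm5. Grm5 is the gene of a metabotropic receptor that binds Homer. This pattern was not particular to them. ELS replicate 2 was also the highest and ELS replicate 3 the lowest ELS library for other listed genes, including Tanc2, Frmpd4, Dlgap2 and Homer2.

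**Figure D5:**
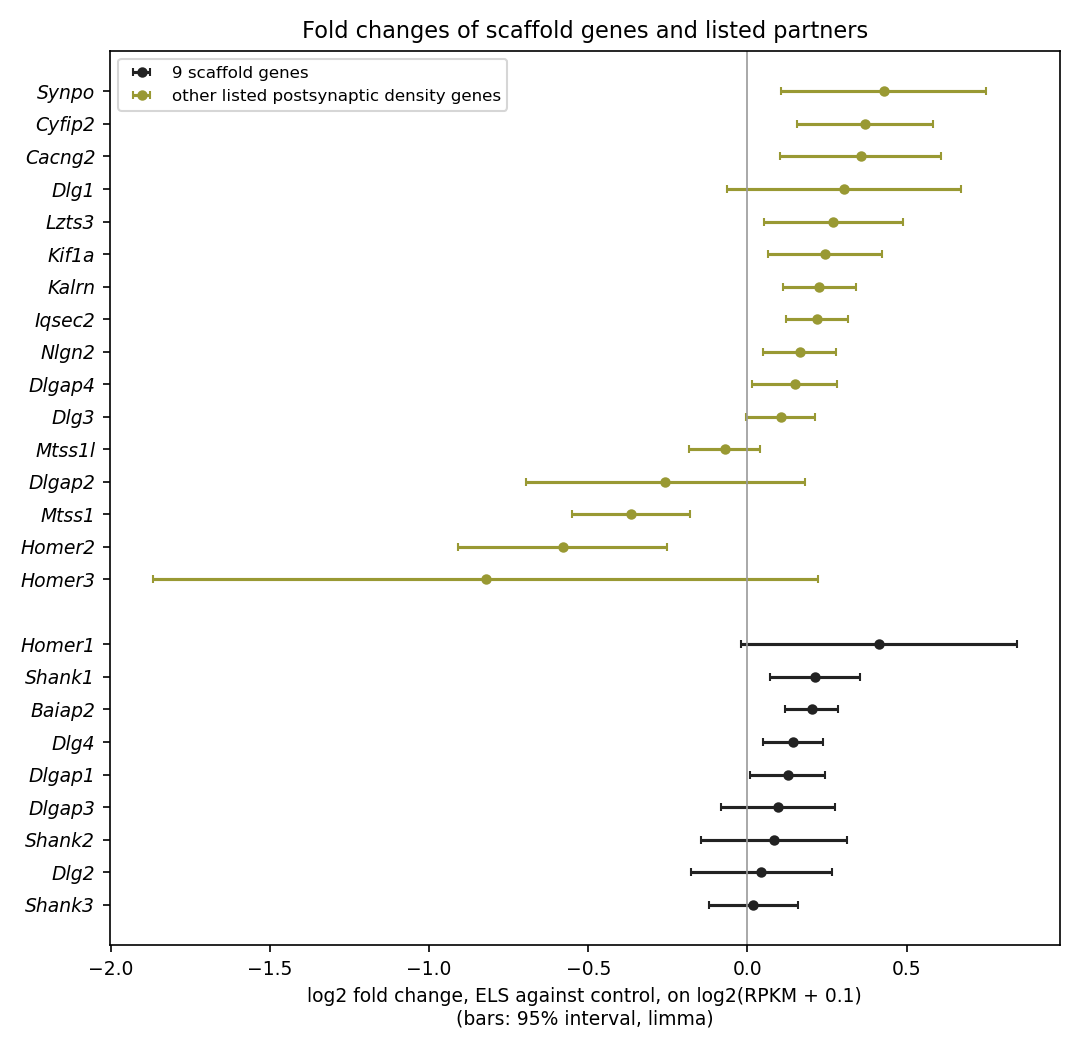
Log2 fold change (ELS against control, on log2(RPKM + 0.1)) with 95% interval from limma for the 9 scaffold genes and 16 named paralogs and partners; 0 lies at the grey line. All 9 scaffolds lie right of it, from 0.02 (Shank3) to 0.41 (Homer1), and Homer2 lies at -0.58.

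Genes that varied most like each scaffold within the groups were named by Pearson's r over the 10 libraries after removal of group means, as a description among 14641 genes that share library and depth. Shank1 followed Ckb, the brain creatine kinase (r = 0.99), and Baiap2 followed Pfkm, a phosphofructokinase (r = 0.97). Homer1 followed Pcsk1, a prohormone convertase (r = 0.98), Dlg2 followed Opa1 (r = 0.97), Shank3 followed Bsg (r = 0.97) and Dlgap1 followed Mtor (r = 0.94). For Dlg4 the closest was Znhit3 (r = 0.96), for Dlgap3 Mir6333 (r = 0.98) and for Shank2 Meltf (r = 0.97). Without control replicate 4 these 9 values of r lay between 0.92 and 0.98. The remaining libraries had already served to pick these genes, so that range is no independent check. Dlg4 and Baiap2 varied together at r = 0.82 (0.80 without control replicate 4), and Shank3 and Homer1 went from -0.14 to 0.84 without that library.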

How the data were processed

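RNA of 10 prefrontal cortex samples (5 control, 5 ELS) was sequenced after a stranded mRNA kit, per the labels' protocols. The deposited table holds RPKM values per gene, which the authors made with STAR, featureCounts and build rn6, per the submitters' processing notes. For versions, annotation and strand setting: not given in the sources used here. RPKM steps gave whole reads (tolerance 0.002) for 16015 of 16015 rows above 0 (100%), with totals of 18838898 to 22311136 reads per library. Those totals set the counting precision.

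Groups were compared with limma 3.58.1 (R 4.3.3) on log2(RPKM + 0.1) for 14642 of 16041 genes at 0.5 RPKM or more in at least 5 libraries, with Benjamini-Hochberg adjustment over all genes and a threshold of 0.05. Ratios of gene pairs were compared by two-sided exact permutation tests in Python 3.11.15. The limma fit was also run on simulated reads of independent genes with a common spread and no outlying library. That setting is simpler than these data and does not cover the small changes reported here. The members and lists were chosen with earlier results of these data known. Named were all 9 genes, the 2 genes of lowest p per wider list and the 2 genes most correlated with each member (the closer one is printed). Alternatives were other pseudocounts, filters and scalings, limma-voom on recovered reads, array weights, a replicate block and leaving out libraries. Scaling by excitatory neuron markers, the refits of the wider lists and correlations without control replicate 4 were added after the data were seen. Promoter windows came from RefSeq (GRCr8), matched by symbol, and their coordinates are not those of rn6.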

Additional observations from a re-analysis of the deposited data

Results flagged for a closer look

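Of 60 groups of 5 libraries checked, 11 held a library whose gap to its nearest neighbour exceeded 0.71 of the group's range (Dixon's 95% limit). Chance alone flags about 1 group in 20. Control replicate 4 accounted for 6 of them, being low for Dlgap3 (51.3 RPKM), Cyfip2 (169.6 RPKM), Nlgn2 (40.4 RPKM) and the log2 ratio of Shank1 to Shank3 (0.901), and high for Homer3 (14.9 RPKM) and the log2 ratio of Shank3 to Shank2 (4.74). ELS replicate 2 was low for Dlg4 (181.1 RPKM) and high for Mtss1 (7.54 RPKM), on the control side of its group in both. ELS replicate 3 was low for Dlg2 (38.0 RPKM) and high for Lzts3 (97.7 RPKM), and ELS replicate 4 was high for Dlgap1 (73.9 RPKM).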

How the results depend on the processing

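The direction of Baiap2, Shank1 and Homer1 was the same under every alternative run. Genes called over the whole table numbered 0 as reported, 866 with array weights, 1116 without both ELS replicate 2 and control replicate 4, 2407 scaled by the excitatory marker sum, 326 scaled by Slc17a7, and 0 to 444 leaving out 1 library (444 without ELS replicate 2, 1 without ELS replicate 5). Of the 9 scaffolds, 4 were under an unadjusted p of 0.05, 3 to 4 leaving out 1 library, 1 scaled by the marker sum and 0 by Slc17a7. Of the wider lists, 23 genes were called, and 15 (without ELS replicate 4) to 25 leaving out 1 library, and 32 without both. The share of all genes tested under an unadjusted p of 0.05 also moved. It was 20.4% as reported and 14.6% (without ELS replicate 4) to 22.6% (without ELS replicate 2) leaving out 1 library. Without both it was 25.96%, so the rise to 32 listed genes came with a rise over all genes. It was 38.1% scaled by the marker sum and 23.3% by Slc17a7. Marker scaling shifts all genes alike (median of all genes -0.18 by the marker sum and -0.112 by Slc17a7), so positive fold changes below the shift change sign by construction. The marker sum reversed Dlg4 (-0.0449), Dlgap1 (-0.0618), Dlgap4 (-0.0394) and Nlgn2 (-0.0238). The marker sum and Slc17a7 both reversed Dlg2 (-0.143 and -0.0741), Dlgap3 (-0.0913 and -0.0219), Shank2 (-0.0958 and -0.0299), Shank3 (-0.169 and -0.0999) and Dlg3 (-0.0834 and -0.014). Dlg2 also reversed without control replicate 3 (-0.00691; leaving out 1 library -0.00691 to 0.125) and without both libraries (-0.0101). Shank3 reversed with the upper quartile (-0.000689) and without control replicate 2 (-0.00552) or 3 (-0.0161; range to 0.0699), and was 0.0797 without both libraries. The Shank1 to Shank3 difference passed with a pseudocount of 1 (0.192, exact permutation, adjusted p = 0.0397) and without control replicate 2 (0.231; leaving out 1 library 0.0901 to 0.231), and Shank1 to Shank2 passed with a pseudocount of 1 (0.152). Shank3 to Shank2 reversed without control replicate 4 (0.054; range -0.119 to 0.054) and without both libraries (0.0747). Dlgap1 to Dlgap3 reversed without control replicate 3 (-0.012) or ELS replicate 4 (-0.0128; range to 0.0827), and was 0.089 without both libraries. Dlg4 to Dlg2 ranged from 0.00665 to 0.153. The cause of these shifts was not tested, and the marker scalings do not test one.

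The shared replicate numbers did not pair the samples: same-numbered deviations correlated at -0.0817 to 0.0658, and 1 of 5 pairs matched best with its own number. With the replicate number as a block, limma called 0 genes after adjustment. Under an unadjusted p of 0.05 were 3 scaffolds and 21 genes of the wider lists, beside 17.1% of all genes tested. Baiap2 kept a log2 fold change of 0.202 (limma, adjusted p = 0.222).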
